A study of Mus musculus with 30 samples.

Results

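The genes described here are 8 genes of noradrenergic and visceral motor neurons, Dbh, Th, Ddc, Slc18a2, Gch1, Phox2a, Hand2 and Tbx20, out of 45706 genes in the deposited expression files. They were chosen by name, with earlier RNA results of the same libraries known. Their RNA values and calls are therefore given as a description and support nothing further. All 8 members were found in the files, and all 8 passed the filter on low counts. The series compared mouse embryonic stem (ES) cells with motor neurons made from them, wild type (WT) or of the lines HD and EH, which the labels both give as Mnx1KO, knockouts of the motor neuron homeodomain factor Mnx1 (also called Hb9).

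Motor neurons were collected on day 6. All 3 genotypes had received retinoic acid (1 µM) and SAG, an agonist of Smoothened (1 µM), and later these agents with doxycycline (1 µM) and DAPT, which blocks Notch signalling (5 µM). RNA was measured in 2 libraries each of WT ES cells and of WT, HD and EH motor neurons. Histone marks were mapped by ChIP-seq in WT and HD motor neurons, and Mnx1 in WT motor neurons, from 22 libraries. No ChIP-seq of EH was analysed here. The labels do not say which part of Mnx1 each line lacks, whether HD and EH are single clones, or whether replicates were separate cultures. Every error and p-value therefore measures only the spread between these libraries, which may be technical.

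Noradrenaline is made from tyrosine in steps. Tyrosine hydroxylase (Th), which needs the cofactor tetrahydrobiopterin made by the Gch1 pathway, gives L-DOPA, aromatic L-amino acid decarboxylase (Ddc) turns it into dopamine, the vesicular monoamine transporter (Slc18a2) loads dopamine into vesicles, and dopamine beta-hydroxylase (Dbh) converts it there into noradrenaline. Dbh is the step that sets noradrenergic neurons apart from dopaminergic ones. Phox2a, a homeodomain factor, and Hand2, a basic helix-loop-helix factor, are known to drive this programme in sympathetic neurons, and the T-box factor Tbx20 is known from cranial and visceral motor neurons. Somatic motor neurons, the type that Mnx1 marks, normally use acetylcholine.

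The promoters of 4 of the genes are shown because the ChIP-seq results below differ most between them. Dbh and Th had Mnx1 regions nearby, and only Th of the 8 genes had H3K27ac at its start, while the starts of Phox2a and Tbx20 lay inside regions of both H3K4me3 and H3K27me3. Each sequence runs from 250 bases before to 50 bases after the start of the gene, from RefSeq on GRCm38.p6, on the strand of the gene. Capitals mark TAAT, the core that homeodomain proteins read, on either strand (so written TAAT or ATTA).
Dbh: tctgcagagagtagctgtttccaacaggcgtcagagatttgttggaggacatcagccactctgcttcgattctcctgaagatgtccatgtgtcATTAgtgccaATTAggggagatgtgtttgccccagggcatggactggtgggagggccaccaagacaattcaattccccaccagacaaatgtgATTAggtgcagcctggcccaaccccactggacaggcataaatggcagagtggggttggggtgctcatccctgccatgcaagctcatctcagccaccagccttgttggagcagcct
Th: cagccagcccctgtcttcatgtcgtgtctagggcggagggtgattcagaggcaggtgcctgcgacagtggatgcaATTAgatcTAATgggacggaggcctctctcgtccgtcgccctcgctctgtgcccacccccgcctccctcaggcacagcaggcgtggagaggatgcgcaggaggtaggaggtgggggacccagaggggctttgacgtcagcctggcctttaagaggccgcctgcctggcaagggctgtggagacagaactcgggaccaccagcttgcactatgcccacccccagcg
Phox2a: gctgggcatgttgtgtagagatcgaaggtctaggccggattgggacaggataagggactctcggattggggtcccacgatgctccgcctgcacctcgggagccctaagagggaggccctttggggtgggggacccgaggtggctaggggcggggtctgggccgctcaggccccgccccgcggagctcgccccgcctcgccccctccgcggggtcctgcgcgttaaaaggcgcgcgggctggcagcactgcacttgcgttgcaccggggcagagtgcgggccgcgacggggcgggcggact
Tbx20: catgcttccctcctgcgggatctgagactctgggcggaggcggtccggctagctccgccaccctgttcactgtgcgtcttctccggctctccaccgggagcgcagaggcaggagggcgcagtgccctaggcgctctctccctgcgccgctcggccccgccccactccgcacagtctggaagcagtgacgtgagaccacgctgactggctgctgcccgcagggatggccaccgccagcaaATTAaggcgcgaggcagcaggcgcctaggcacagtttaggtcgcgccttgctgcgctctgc
The positions are chr2:27165257-27165556 on the plus strand for Dbh, chr7:142899946-142900245 on the minus strand for Th, chr7:101818063-101818362 on the plus strand for Phox2a and chr9:24774254-24774553 on the minus strand for Tbx20. All 8 genes matched an entry of the promoter table. TAAT was found 3 times in the Dbh promoter, 2 times in that of Th, 3 times in that of Ddc, 5 times in that of Hand2 and 1 time each in those of Slc18a2 and Tbx20. It was not found in the Gch1 and Phox2a windows. Of 21263 promoters of the same length, 51.8% held it at least 1 time, so its presence in 6 of 8 does not set these genes apart. The cAMP response element TGACGTCA, read on either strand, stood in the Th and the Slc18a2 promoter, against 2.23% of all promoters. The E-box CANNTG was found in the promoters of Dbh, Th, Slc18a2, Phox2a and Hand2, against 69.0% of all promoters. Overlapping matches of TAAT were counted separately, and a match describes the sequence only.

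The promoters also differed in CpG content. The Dbh and the Ddc promoter each held 2 CpG dinucleotides in 300 bases, below the lower quartile of all promoters, which was 4. Those of Phox2a and Tbx20 held 30 and 26, above the upper quartile of 24. The promoters of Slc18a2, Th, Hand2 and Gch1 lay between, with 12, 15, 17 and 20 against a median of 13.

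Before the values, some facts bear on how far the libraries can be compared. Total expected counts (M, mega-counts) were 51.3 to 53.2 M in ES cells, 39.7 to 39.8 M in EH, 11.2 to 12.4 M in HD and 13.9 M in both WT motor neuron libraries. A gene of low level was therefore counted from fewer reads in HD and WT than in EH. Mnx1 RNA itself was 395.15 and 343.35 TPM (a level of transcripts scaled to gene length and library) in WT, 376.72 and 312.48 in HD and 446.11 and 564.55 in EH motor neurons. WT and HD overlapped (log2 difference -0.14), EH lay above WT, and without the position of the deletion this RNA does not check the knockout. The motor neuron genes Chat and Slc18a3 were at 67.7 to 118.38 and 255.93 to 350.1 TPM over the 6 motor neuron libraries, against at most 0.47 TPM in ES cells. The EH libraries stood apart in trophoblast markers, a list chosen after values were seen. Of these, 9 of 12 tested fell in EH, beside 11.6% of all genes. In HD 0 changed, beside 0.173% of all genes (0 also at an unadjusted p of 0.05 and by DESeq2). The summed level of these markers was 142.8 and 61.12 TPM in EH, against 504.2 and 698.3 in HD and 613.5 and 609.2 in WT. These are bulk cultures, in which fewer cells of a type and less RNA per cell cannot be told apart.

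The 8 genes fell into 3 patterns in the mutant lines. Dbh and Tbx20 were higher than WT in every HD and every EH library, and Hand2 was lower in every one. Th, Ddc and Gch1 departed from WT in EH and not in HD, upwards for Th and Ddc and downwards for Gch1. Phox2a was somewhat higher in both lines, and Slc18a2 did not separate the lines from WT. The plot of levels by library shows all of these values.

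**Figure D1:**
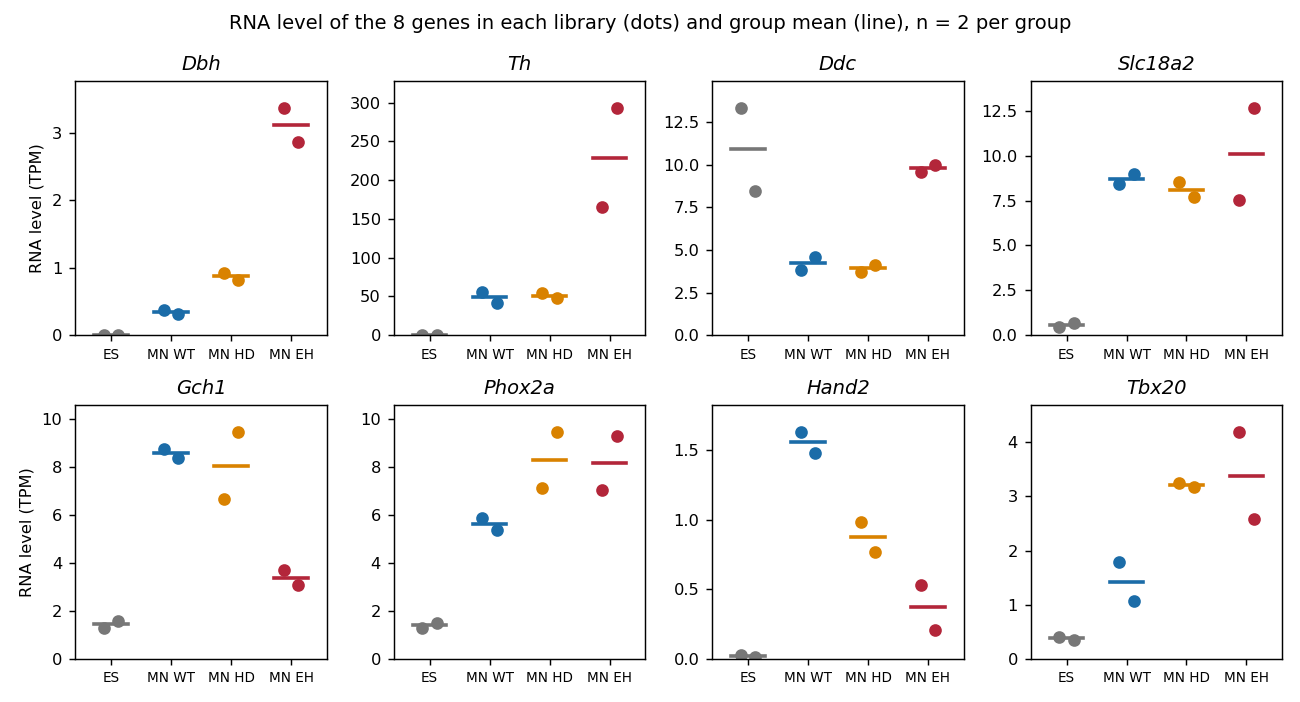
RNA level in TPM (vertical axes, each starting at 0 with its own scale) of the 8 genes in ES cells and in WT, HD and EH motor neurons; dots are single libraries, 2 per group, and lines are group means. Dbh rises in steps from 0.31 to 0.37 TPM in WT to 2.86 to 3.36 TPM in EH, Th stands out in EH alone, and Gch1 and Hand2 are lowest among motor neurons in EH.

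Dbh, the last enzyme of noradrenaline synthesis, had no count in either ES library. It was at 0.37 and 0.31 TPM in WT motor neurons, 0.92 and 0.82 TPM in HD and 3.36 and 2.86 TPM in EH. The groups did not overlap, in the order ES, WT, HD, EH. These levels rested on 7 and 6 counts in WT and 14 and 14 in HD, against 190 and 153 in EH, so the WT and HD values carry a wide counting error. On the log2 scale Dbh was 1.36 ± 0.36 higher in HD than in WT and 3.21 ± 0.31 higher in EH than in WT (fold change ± SE, 2 libraries each). The level in HD was 1.85 ± 0.27 below that in EH. A count of 0 allows up to 3 counts over the ES group. Against that limit, the observed counts of Dbh gave ratios of at least 16.3 in WT, 41.3 in HD and 150 in EH motor neurons. These ratios allow for counting error in the ES zero only. The counting error of the motor neuron counts is left out, so the true ratios may be lower, most of all in WT and HD. PCR reads that lack molecular identifiers also do not count molecules.

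Th, the first enzyme of the pathway, was the highest of the 8 genes by TPM in all 6 motor neuron libraries. Its level was 0.24 and 0.21 TPM in ES cells, 55.81 and 41.89 TPM in WT, 54.28 and 47.63 TPM in HD and 165.42 and 292.89 TPM in EH. WT and HD overlapped, and both EH libraries lay above every other library while differing between themselves by more than the whole level in WT. The log2 difference from WT was 0.07 ± 0.27 in HD and 2.25 ± 0.27 in EH. It moved between 1.80 and 2.62 in EH when single libraries were left out. Against ES cells, Th was 7.27 ± 0.38 higher in WT motor neurons on the log2 scale.

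Ddc, the decarboxylase, was the 1 gene of the 8 that was lower in WT motor neurons than in ES cells. Its level was 13.32 and 8.49 TPM in ES cells, 3.83 and 4.59 TPM in WT, 3.72 and 4.13 TPM in HD and 9.59 and 10.01 TPM in EH. WT and HD overlapped, EH and ES cells overlapped, and the 2 pairs stood apart. The log2 difference from WT was 0.03 ± 0.22 in HD and 1.34 ± 0.20 in EH, and WT lay 1.45 below ES cells (log2 fold change -1.45 ± 0.27). The RefSeq span of Ddc contains 2 long non-coding RNA genes, Gm51937 and 1700042O10Rik. The library kit keeps strand, but whether the counting used it is not given in the sources used here.

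Slc18a2, the vesicular transporter of monoamines, was at 0.47 and 0.66 TPM in ES cells, 8.44 and 8.99 TPM in WT, 8.51 and 7.71 TPM in HD and 7.52 and 12.64 TPM in EH. All 3 motor neuron groups overlapped, and all lay above ES cells. Its log2 difference from WT was -0.10 ± 0.25 in HD and 0.23 ± 0.24 in EH. The EH value turned to -0.18 without the second EH library and rose to 0.57 without the first. Against ES cells it was 3.31 ± 0.29 higher in WT.

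Gch1, GTP cyclohydrolase, makes the first committed intermediate of the cofactor that Th needs. Its level was 1.28 and 1.59 TPM in ES cells, 8.75 and 8.39 TPM in WT, 6.65 and 9.46 TPM in HD and 3.70 and 3.06 TPM in EH. WT lay within the range of HD, and EH lay between ES cells and the other motor neurons without overlap. The log2 difference from WT was -0.08 ± 0.22 in HD and -1.32 ± 0.22 in EH. In EH the hydroxylase Th and the cofactor enzyme Gch1 thus moved in opposite directions. The span of Gch1 holds a pseudogene, Gm18811.

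Phox2a was at 1.28 and 1.5 TPM in ES cells, 5.87 and 5.36 TPM in WT, 7.14 and 9.46 TPM in HD and 7.05 and 9.28 TPM in EH. All 4 mutant libraries lay above both WT libraries, while HD and EH overlapped. The log2 difference from WT was 0.58 ± 0.24 in HD and 0.56 ± 0.23 in EH, and both values contain the same WT libraries. Phox2a overlaps Inppl1 at the level of RefSeq spans, so reads from the shared stretch depend on how strand was used.

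Hand2, which is known to act with Phox2a on Dbh, was the lowest of the 8 genes by TPM in both EH libraries. It was at 0.03 and 0.01 TPM in ES cells, 1.63 and 1.48 TPM in WT, 0.98 and 0.77 TPM in HD and 0.53 and 0.21 TPM in EH. The 4 groups did not overlap, in the order ES, EH, HD, WT, which reverses the order of Dbh among motor neurons. The counts were 27 and 25 in WT, 13 and 11 in HD and 26 and 10 in EH, from a deeper library pair in EH. The log2 difference from WT was -0.85 ± 0.48 in HD and -2.02 ± 0.46 in EH. From 3 counts in ES cells, the ratio of WT motor neurons to ES cells was 65.1, with a counting interval of 21.1 to 326.

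Tbx20 was at 0.41 and 0.35 TPM in ES cells, 1.78 and 1.06 TPM in WT, 3.24 and 3.18 TPM in HD and 4.19 and 2.58 TPM in EH. Every mutant library lay above both WT libraries, and the 2 HD libraries fell inside the range of EH. The log2 difference from WT was 1.26 ± 0.29 in HD and 1.29 ± 0.28 in EH. Both differences share the WT libraries, which themselves differed from 1.06 to 1.78 TPM.

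**Figure D2:**
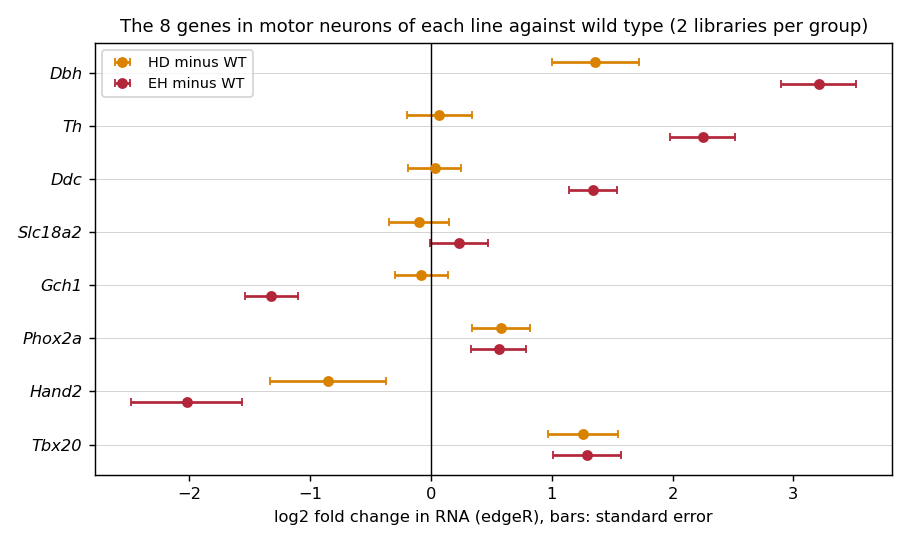
Log2 fold change in RNA of the 8 genes (horizontal axis) in HD (orange) and EH (red) motor neurons against the same 2 WT libraries, with standard errors as bars and 2 libraries per group. Dbh, Tbx20 and Phox2a lie right of 0 and Hand2 left of 0 in both lines, while Th, Ddc and Gch1 lie near 0 in HD and away from it in EH.

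Because these contrasts helped to choose the genes, the counts that follow describe them and support nothing further. In EH against WT, 4 members were called higher and 2 lower by edgeR (Benjamini-Hochberg adjusted p of 0.05), while 9.61% of 15565 tested genes were called higher and 11.6% lower. In HD against WT, 0 of 8 were called by edgeR, where 0.173% of all genes were. There, 2 of the 8 had an unadjusted p under 0.05, beside 871 of the 15565 genes. DESeq2 called 1, Tbx20, beside 182 of 15565. Tbx20 was also called by edgeR in a fit of HD and WT alone and without either EH library. For the mean of the lines against WT, 1 of 8 was called higher by edgeR (Dbh), beside 0.283% of all genes. DESeq2 called 3 higher (Dbh, Th and Tbx20), beside 372 of 15565 genes that it called higher. In HD against EH, edgeR called 1 higher and 3 lower, beside 11.8% and 9.43%. Between WT motor neurons and ES cells, 7 were called higher and 1 lower, beside 38.8% and 36.5% of 17770 genes. The median log2 change of the 8 genes was 0.92 in EH, 0.05 in HD and 2.62 from ES cells to WT motor neurons, against 0, -0.01 and 0.02 over all genes tested.

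The EH calls rested on both WT libraries. Without either WT library the calls of Th, Ddc, Gch1, Hand2 and Tbx20 in EH were lost, and without WT library 2 so was that of Dbh, although every one kept its direction. The number of genes called in EH over the whole table fell from 3301 to 156 and 96 without WT library 1 and 2. Without EH library 1, Slc18a2 and Phox2a were called as well. The call of Dbh for the mean of both lines was lost without HD library 1 or 2 and without WT library 1 or 2. With the replicate number as a block it was lost too, though the labels do not say that the numbers pair the libraries. For the same mean, Th and Tbx20 were each called under 5 of 14 alternatives. Tbx20 in EH also lost its call with limma on either log2(TPM) scale. In HD against EH, all 4 calls (Dbh, Th, Ddc and Gch1) were lost without HD library 2, and those of Dbh and Ddc also without HD library 1.

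Among the genes compared, the 5 whose levels followed Dbh most closely over the 6 motor neuron libraries were Xlr3c, Ghrh, Sall1, Chrnb4 and Tspan15. Their Pearson correlations of log2(CPM + 1) with Dbh were 0.992, 0.990, 0.989, 0.986 and 0.983, the highest among 1927 genes compared. Genes of low level or little variation and those with provisional names were left out, so others may follow Dbh as closely. The 6 points fall into the 3 genotypes and share their library depths, so the values describe likeness only. Chrnb4, a nicotinic acetylcholine receptor subunit, was at 13.25 and 12.22 TPM in WT, 23.92 and 21.38 in HD and 74.97 and 99.01 in EH. Ghrh, which encodes growth hormone-releasing hormone, was at 10.78 and 6.73 TPM in WT, 14.16 and 14.24 in HD and 42.13 to 43.51 in EH. Both rose in the same order of groups as Dbh, and neither had overlapping groups. Sall1, a zinc finger factor, differed from Dbh in ES cells, where it was at 65.75 and 50.03 TPM.

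The lists of other genes were also chosen with earlier results of these data known, which limits every p-value given for them below. Other genes that handle catecholamines or their cofactor changed in EH in 3 of 13 cases tested, 1 higher and 2 lower. Beside this stand 9.61% and 11.6% of all genes, so the share of the list is near the background. Cyb561, an electron carrier of secretory vesicle membranes that regenerates the ascorbate Dbh uses, rose by 0.96 ± 0.12 on the log2 scale (edgeR, adjusted p = 0.00603), from 11.53 and 11.62 TPM in WT to 21.6 and 23.43 in EH. Slc6a2, the noradrenaline reuptake transporter, fell by 2.32 (SE 0.26, edgeR, adjusted p = 0.00498), from 10.31 and 12.9 TPM to 2.7 and 1.73. Qdpr, which recycles tetrahydrobiopterin, fell by 0.68 (SE 0.13, edgeR, adjusted p = 0.0144). Gch1, which begins the synthesis of Th's cofactor, Qdpr and the noradrenaline transporter Slc6a2 were thus lower in EH, while Dbh, Th and Ddc were higher. The other cofactor genes of the list were not called by edgeR and went both ways. Pcbd1 was 0.67 ± 0.2 above WT (called by DESeq2) and Pts 0.27 above, while Spr (-0.21), Pcbd2 (-0.23) and Gchfr (-0.48) lay below. The median log2 change of the list was -0.21 in EH against 0 for all genes. Pnmt, which would turn noradrenaline into adrenaline, was at most 0.16 TPM in every motor neuron library, and the dopamine transporter Slc6a3 at most 0.19 TPM.

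Of the 7 tested differentiation factors of noradrenergic neurons that are reported here, 1 rose and 4 fell in EH. Beside this, 9.61% of all genes rose and 11.6% fell. The zinc finger factor Insm1 rose by 1.01 ± 0.22 (edgeR, adjusted p = 0.0223). Gata2 fell by 1.67 (SE 0.32, edgeR, adjusted p = 0.0156), Gata3 by 1.51 (SE 0.27, edgeR, adjusted p = 0.0134), Hand1 by 1.37 (SE 0.28, edgeR, adjusted p = 0.0187) and Tfap2a by 1.00 (SE 0.24, edgeR, adjusted p = 0.0307). Hand2 was thus lower together with its relative Hand1. Gata2, Gata3, Hand1 and Tfap2a are also known from trophoblast, whose summed markers were at 61.12 to 142.8 TPM in EH and at 609.2 to 613.5 TPM in WT, and the part of those cells in the result was not tested. The same holds for Slc6a2, which placenta is known to express. The median of this list was -1 on the log2 scale in EH.

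Among the adrenergic receptors, 1 of 6 tested rose and 2 fell in EH, beside 9.61% and 11.6% of all genes. Adra1a rose by 2.36 ± 0.30 (edgeR, adjusted p = 0.00631), from 0.43 and 0.34 TPM to 2.05 and 1.7. Adra2c fell by 2.63 (SE 0.29, edgeR, adjusted p = 0.00508), from 2.51 and 1.84 TPM to 0.39 and 0.3, and Adra2b by 1.66 (SE 0.25, edgeR, adjusted p = 0.00896).

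Of 14 tested genes of cranial and visceral motor neurons, 4 rose and 4 fell in EH, beside 9.61% and 11.6% of all genes. Zeb2 rose by 1.45 ± 0.13 (edgeR, adjusted p = 0.00354), Isl1, a factor of somatic and visceral motor neurons alike, by 0.89 ± 0.15 (edgeR, adjusted p = 0.0108) and Nkx6-1 by 0.81 ± 0.17 (edgeR, adjusted p = 0.0207). Nos1, the neuronal nitric oxide synthase of visceral motor neurons, fell by 0.68 (SE 0.14, edgeR, adjusted p = 0.0189), as did Gata2 and Gata3. Tbx3 rose by 0.80 ± 0.18 and Hoxb1 fell by 2.02 (SE 0.50) as well, 2 genes named here after their values were seen (edgeR, adjusted p = 0.0242 and 0.0334). Zeb2 was also called for the mean of both lines (0.88 ± 0.12, edgeR, adjusted p = 0.0388), a call lost under 7 of 14 alternatives: without either HD or either WT library, with the replicate block and on both limma scales. Of 10 somatic motor neuron genes, Isl1 and Lmo4 rose in EH and 0 fell, beside 9.61% and 11.6% of all genes. Lmo4 rose by 0.45 ± 0.12 (edgeR, adjusted p = 0.0433). Leaving out either WT library ended the EH calls of the genes that the naming rule took from these lists, except that Slc6a2 lost its call only without library 2, Adra2c only without library 1 while Zeb2 kept its call without either. Tbx3 and Hoxb1 were not run under the alternatives. Hand1, Tfap2a, Nkx6-1 and Lmo4 lost their calls with the replicate block, Nos1 on both limma scales, and Lmo4 under 6 of 14 alternatives in all.

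**Figure D3:**
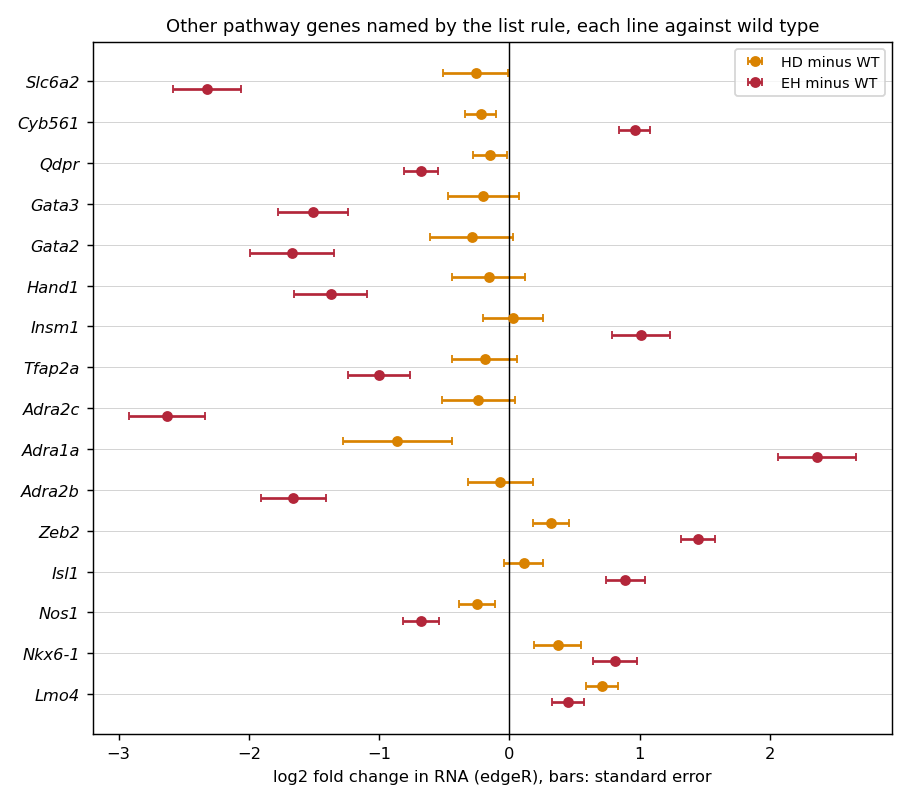
Log2 fold change in RNA (horizontal axis) of the other pathway genes named by the rule, in HD (orange) and EH (red) motor neurons against the same 2 WT libraries, with standard errors as bars. The EH values spread from -2.63 for Adra2c to 2.36 for Adra1a, while in HD edgeR called none of these genes and DESeq2 called Lmo4.

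In HD, 0 of the 46 genes tested in the 5 lists was called against WT by edgeR, beside 0.173% of all genes. At an unadjusted p under 0.05 (edgeR) there were 6 of 46, beside 871 of all 15565 genes tested. DESeq2 called 2, Lhx4 and Lmo4, beside 182 of 15565. Beside log2 differences from WT of 1.36 for Dbh and 1.26 for Tbx20 in HD, those of the listed differentiation factors were -0.29 for Gata2, -0.20 for Gata3, -0.16 for Hand1 and 0.03 for Insm1. The median of the differentiation factors in HD was -0.16.

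Markers of other cells that use the same enzymes or factors were at mixed levels, with some defining genes near 0 and others not. For the counts of calls given below, 9.61% of all genes rose and 11.6% fell in EH. Of the midbrain dopaminergic markers, Pitx3, Slc6a3, Lmx1a and En1 were at most 0.04, 0.19, 0.39 and 0.23 TPM in motor neurons. The others were higher, with Foxa2 at 3.22 to 5.23 TPM, Foxa1 at 1.15 to 3.3, Nr4a2 at 1.42 to 2.47, Lmx1b at 0.56 to 3.14 and En2 at 0.6 to 4.38. The summed level of the 9 markers was 13.37 to 18.23 TPM in WT, 11.93 to 15.69 in HD and 8.55 to 10.42 in EH, where 2 of 5 tested fell (Foxa1 and En2). The serotonergic factor Fev was at 0 in 5 of 6 motor neuron libraries and at 0.09 TPM in the sixth. Tph2 was at 0.11 to 0.83 TPM and Slc6a4 at 0.09 to 0.71 TPM. The 6 serotonergic markers, which include Gata2 and Gata3, summed to 60.57 to 73.52 TPM in WT, 48.19 to 61.21 in HD and 15.69 to 29.21 in EH, where those 2 genes fell of 5 tested. In neural crest and glia, Sox10 was at most 0.49 TPM, and the 7 markers reported, carried by Ngfr, summed to 153.1 to 214.2 TPM in WT, 129.8 to 150.3 in HD and 190.6 to 235.3 in EH, although 2 of 4 tested fell in EH (Tfap2a and Ednrb). The chromaffin and sympathetic list, which holds Th, Dbh and Phox2a, summed to 474 to 662.7 TPM in WT, 373.4 to 429.2 in HD and 440.4 to 481.2 in EH. Most of it came from Dlk1, Chga and Chgb in WT. In EH the largest part was Th, at 165.42 to 292.89 TPM against 41.89 to 55.81 in WT. Dlk1 was at 9.56 to 133.9 TPM in EH against 302.68 to 449.89 in WT, a difference that was not called. The 2 genes of this list called in EH were Th and Dbh. Cardiac markers, relevant because Hand2 and Tbx20 are also heart factors, summed to 7.47 to 7.83 TPM in WT, 6.1 to 6.2 in HD and 12.89 to 31.73 in EH. Of these, 1 of 4 tested rose in EH, Nkx2-5 and Tnnt2 were at most 0.41 and 0.70 TPM, and Gata4 and Gata6, also genes of endoderm, were the highest in EH. Endoderm markers, a list chosen after values were seen, summed to 7.88 to 10.92 TPM in WT, 5.67 to 11.24 in HD and 15.93 to 18.21 in EH, with 1 of 7 tested higher. The 8 pan-neuronal markers summed to 5542 to 5825 TPM in WT, 6694 to 6794 in HD and 4821 to 6169 in EH. The 6 pluripotent markers were at 25.54 to 65.27 TPM in all motor neurons against 2778 to 3194 TPM in ES cells. The part of any of these cells in the results on the 8 genes was not tested.

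ChIP-seq gave the sites of Mnx1 in WT motor neurons and of 5 histone marks in WT and HD. The authors deposited 1 list per mark and genotype, so that no spread between ChIP libraries can be given, and a region in 1 genotype only is not tested as a difference. The enrichments quoted are the authors' own values, used within a list. The names of the entries in the WT H3K27ac list read KO, against its label, which was followed. The labels list a GFP antibody but no Mnx1 antibody, and do not say how the factor was precipitated.

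Regions bound by Mnx1 lay within 50 kb of Dbh, Th and Ddc, all synthesis enzymes, and of none of the other 5 genes. That is 3 of 8, beside 38.3% of 17492 protein-coding genes, a share near the background. A Mnx1 region overlapped the gene itself for 2 of 8, Th and Ddc, beside 17.0%. Dbh had 1 such region, chr2:27183640-27184330 (GRCm38), which is 691 bp long, begins 436 bp past the end of the gene and is centred 18.5 kb from its start. Its enrichment of 9.94-fold placed it 17th of the 5793 Mnx1 regions, with a -log10 q of 64.3. It overlapped H3K27ac and H3K4me1 regions in both WT and HD, and H3K4me3 in WT did not reach it. The nearest start of another coding gene was that of Fam163b, 41508 bp away.

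Th had 3 Mnx1 regions. The strongest lay inside the gene at chr7:142897428-142898045, 2.26 kb past the start, with 6.74-fold enrichment and rank 190. The others lay upstream, centred 4.53 kb (chr7:142904291-142904764, 3.89-fold) and 5.87 kb (chr7:142905607-142906130, 4.21-fold) from the start. The upstream pair shared 1 H3K27ac region of 4023 bp in WT and 3759 bp in HD. All 3 overlapped H3K27ac and H3K4me1 in both genotypes, and the one inside the gene also overlapped H3K4me3 in WT.

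Ddc also had 3 Mnx1 regions. Those at chr11:11867982-11868715 (5.72-fold, rank 479) and chr11:11850410-11850847 (3.2-fold) lay inside the gene, 29.8 and 47.5 kb past its start. The third, chr11:11808756-11809690 (3.24-fold), lay beyond its end and only 240 bp from the start of Fignl1, so that it is nearer to that gene than to Ddc's start, 88.9 kb away. All of them again overlapped H3K27ac and H3K4me1 regions in both genotypes. Those at chr11:11867982-11868715 and next to Fignl1 also overlapped H3K4me3 in WT. The Ddc gene and its flanks held 12 H3K27ac regions in WT and 10 in HD, the most of the 8 genes in the longest of the windows, and none lay within 1 kb of its annotated start.

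**Figure D4:**
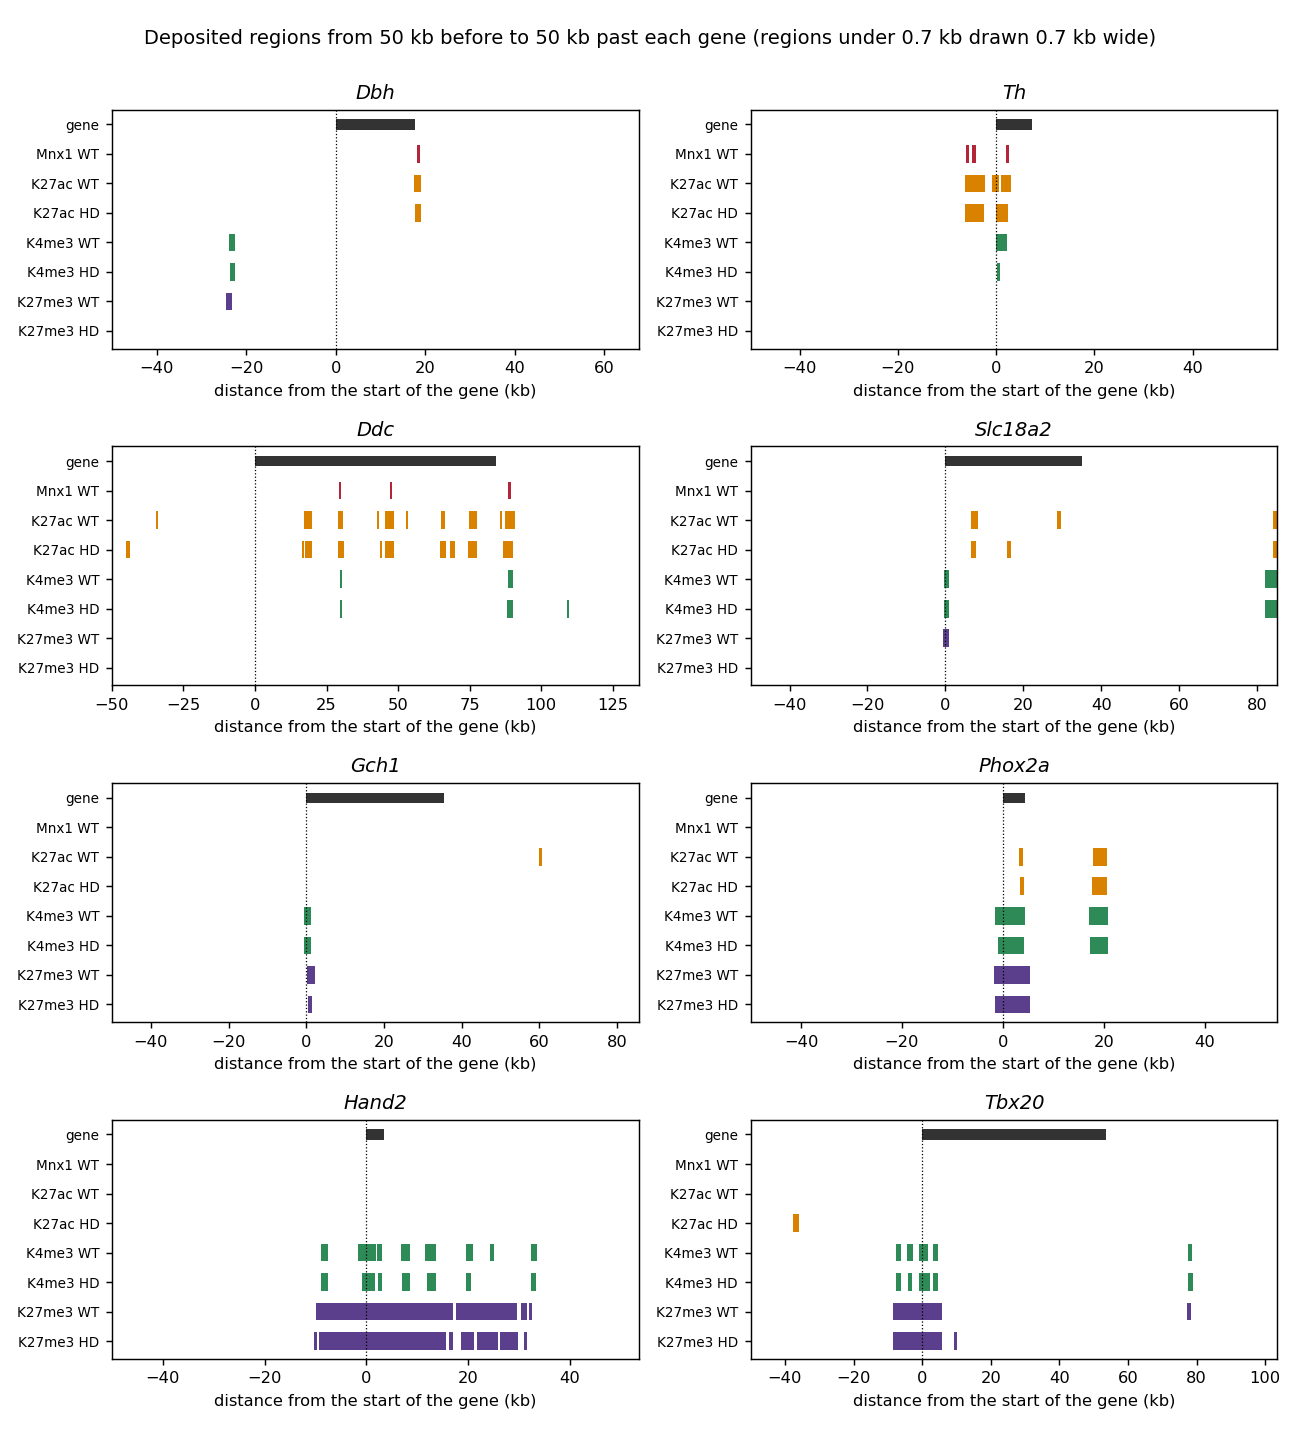
Deposited regions of Mnx1, H3K27ac, H3K4me3 and H3K27me3 from 50 kb before to 50 kb past each of the 8 genes, by distance in kb from the start of the gene (dotted line, transcription to the right); the dark bar is the gene, and short regions are drawn 0.7 kb wide. H3K4me1 and H3K9me3 are not drawn. Mnx1 regions appear at Dbh, Th and Ddc only, and long H3K27me3 regions at Phox2a, Hand2 and Tbx20.

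Marks at the starts of the genes differed between members. H3K4me3, a mark of active or poised promoters, lay within 1 kb of the start of 6 of the 8 genes in WT and in HD, beside 60.4% and 59.5% of coding genes. It was missing at the annotated starts of Dbh and Ddc. Inside Ddc, 30.0 kb past that start, an H3K4me3 region was listed in WT (5.48-fold) and in HD (2.44-fold). H3K27ac, a mark of active promoters and enhancers, reached the start of Th alone, 1 of 8 in each genotype beside 42.7% and 43.7%. At Th, the H3K4me3 region was 2307 bp long in WT and 410 bp in HD, with no test of the difference. Dbh had only H3K4me1 at its start, in WT and not in HD. In all, H3K4me1 was at 7 starts in WT and 5 in HD, beside 57.4% and 49.2%.

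H3K27me3, the mark laid down by Polycomb complexes, lay within 1 kb of the starts of Slc18a2, Gch1, Phox2a, Hand2 and Tbx20 in WT. That is 5 of 8, beside 16.8% of coding genes, and all 5 also had H3K4me3 there, beside 16.1%. In HD it was at 4 of 8, beside 11.9%, and all 4 had H3K4me3, beside 11.4%. The start missing in HD was that of Slc18a2, where the WT region was 1584 bp long with a -log10 q of 3.42. Of coding genes with the mark at the start in WT, 70.4% had it in HD, where the whole list was shorter (5729 against 9365 regions). The regions over the 3 factors were long: 26862 bp in WT and 25035 bp in HD at Hand2, 14435 and 14226 bp at Tbx20, and 7150 and 6986 bp at Phox2a, against 1895 and 1057 bp at Gch1. The H3K27me3 regions at Tbx20 and Phox2a were thus present in HD, where the RNA of both genes was above WT, and the region at Hand2 was present where its RNA was below WT.

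H3K9me3, a mark of heterochromatin, was listed at the starts of the same 3 factors in both genotypes, 3 of 8 beside 6.47% in WT and 4.16% in HD. These entries had a low -log10 q of 2.16 to 3.78. Their enrichment of 3.52 to 4.41 lay around the medians of the lists, 3.8 in WT and 3.62 in HD. None remained at a -log10 q of 5 or more, and the share of all starts left at that cut was not computed. H3K9me3 was mapped in 1 library per genotype. Each mark was mapped in bulk, so regions of H3K4me3, H3K27me3 and H3K9me3 that overlap may come from different cells.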

How the data were processed

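RNA was measured in 8 libraries and chromatin in 22. Per the labels' protocols, RNA was poly(A)-selected and libraries were stranded. The submitters' processing notes name the mm10 build and, among other tools, STAR and RSEM, Bowtie2 and MACS2, and featureCounts, without roles or versions. The deposited files give an expected count and a TPM per gene, per the file headers. The authors' peak lists, in MACS2 layout, give each peak an enrichment (a ratio, or fold) and a -log10 q. Entries that repeat a start and end were reduced to the most enriched.

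The quasi-likelihood test of edgeR 4.0.16 was run on expected counts rounded to whole numbers (TMM, filterByExpr, Benjamini-Hochberg adjusted p of 0.05 over all genes) in R 4.3.3, with 1 fit of the 6 motor neuron libraries (3 residual degrees of freedom) and 1 of all 8 for WT motor neurons against ES cells (4). SE is the log2 fold change over the square root of F. The 3 motor neuron comparisons with WT share its libraries. The alternatives were DESeq2 1.42.0 and its size factors, no filter, the pair of groups alone, a replicate block, limma 3.58.1 on log2(TPM + 1) and log2(TPM + 0.1), and leaving out each library. Replicates of every group differed beyond sampling noise. The chi-square over its degrees of freedom was 4.75 in HD, 6.32 in WT motor neurons, 36.1 in ES cells and 53.4 in EH. This ratio grows with depth, and the ES and EH libraries were the deeper ones. The code was tested on simulated data.

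The 8 members and all lists were chosen with earlier results of these data known. Genes named from the lists passed the all-gene test in HD, in EH or in the mean of both against WT, at most 6 a list by adjusted p. The lists were catecholamine and cofactor handling, noradrenergic differentiation factors, adrenergic receptors, cranial and visceral motor neuron genes and somatic motor neuron genes, beside the marker lists. For likeness to Dbh, the 5 genes of highest correlation were taken among those with a mean CPM of at least 1 and enough variation. Provisional or repeated symbols, pseudogenes and mitochondrial genes were left out there. Genes and promoters came from RefSeq (GRCm38.p6), and symbols were found for 45143 of 45706 IDs. A peak was near a gene within 50 kb of its span, at a start within 1 kb, and overlapping from 1 bp, with Python 3.11.15, numpy 2.4.6 and pandas 2.3.3. Of the lists, 3 genes are not reported here.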

Additional observations from a re-analysis of the deposited data

Results flagged for a closer look

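Of the other pathway genes that the naming rule took, 12 differed between the lines in a test of HD against EH (edgeR, adjusted p of 0.0295 or less). Over all genes tested, 11.8% were called higher in HD than in EH and 9.43% lower. Each of the 12 genes had been taken because it passed in EH against WT, and the test uses the same EH libraries, so a difference between the lines was in part fixed by that choice. Tfap2a, Nkx6-1, Nos1 and Lmo4, which the rule also took, were not called between the lines. HD was above EH in log2 fold change by 0.53 for Qdpr, 2.06 for Slc6a2, 1.38 for Gata2, 1.31 for Gata3, 1.21 for Hand1, 1.58 for Adra2b and 2.39 for Adra2c. HD lay below EH for Cyb561 (-1.18), Insm1 (-0.97), Adra1a (-3.22), Isl1 (-0.78) and Zeb2 (-1.13). Other genes of the same lists, not taken by the rule, were also called lower in HD than in EH: Tbx3 (-1.14), Prph (-1.17), Mnx1 (-0.61), Lhx4 (-1.63), Isl2 (-1.19) and Slc5a7 (-0.74). Of the 12 calls, those of Cyb561 and Adra1a held under all alternatives run, and those of Slc6a2, Adra2b, Adra2c, Isl1 and Zeb2 were lost only without HD library 2, while those of Gata3, Insm1, Gata2, Hand1 and Qdpr were lost under 2, 5, 6, 6 and 8 of 14. The summed trophoblast markers given in the report also differ between HD and EH, and their part in these differences was not tested.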

How the results depend on the processing

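The number of genes called was 3301 in EH against WT, 27 in HD against WT, 127 for the mean of both lines and 3303 in HD against EH. Fits of only the groups compared gave 2121 in EH, 336 in HD and 2014 in HD against EH. DESeq2 gave 182 in HD and 983 for the mean, and no filter on low counts gave 142 and 953. Leaving out 1 library gave 96 to 5932 in EH, 0 to 344 in HD, 0 to 3532 for the mean, 270 to 5291 in HD against EH and 11902 to 13729 in WT against ES cells. The labels do not say whether the replicate numbers pair the libraries. Correlations of replicate differences were -0.2 between EH and HD, -0.15 between EH and WT and 0.21 between HD and WT. With the replicate block, 2080, 0, 5 and 2154 genes were called, and 13129 of 13382 in WT against ES cells. With crossed replicate pairing between EH and the others, an alternative chosen after seeing the data, 4289, 25, 1111 and 4218 were called. The split of calls in WT against ES cells, 6898 higher and 6484 lower, became 9043 and 4025 on the log2(TPM + 1) scale, which moved the median of all genes to 0.433, and 9203 and 3913 on the log2(TPM + 0.1) scale, which moved it to 0.603. None of the values of the 8 genes that was called changed direction under any alternative run. The alternatives reuse the libraries whose results helped to choose the genes, so this describes them and supports nothing further. With 100 kb in place of 50 kb, 6 members had a Mnx1 region. The share of all coding genes at 100 kb was not computed, so this count has no background beside it. Starts with H3K9me3 numbered 0 in WT and 0 in HD at a -log10 q of at least 5, and 1 in WT where regions had to fill at least 50% of the window, which left 3 with H3K4me1 in HD. Dbh in WT and HD and Hand2 in all groups rest on few counts, which limits how finely their levels can be compared.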
